A study of Mus musculus with 6 samples.

Results

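The TGF-beta and activin pathway was examined through 38 genes, which were chosen by name from what their products do: ligands, receptors, proteins that hold latent ligand in the matrix, secreted antagonists, Smads, intracellular brakes and targets. All 38 were found among the 38553 genes of the expression table. RNA-Seq was done on craniofacial tissue dissected at E12.5 from 3 control and 3 mutant mouse embryos on a mixed genetic background. Controls carried the floxed *Rbfox2* alleles (*Rbfox2* flox/flox) and no Cre. Mutants were Pax3Cre/+:*Rbfox2* flox/flox, so they carried the same floxed alleles and had Cre knocked in at 1 of their *Pax3* alleles. Pax3Cre is active in the neural crest and also in paraxial mesoderm and its derivatives, and the dissected tissue also holds cells that never express Cre. No treatment was given.

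TGF-beta and activin are dimeric ligands that bring together type II and type I receptor kinases on the cell surface. The type I receptor then phosphorylates Smad2 and Smad3, which enter the nucleus with Smad4 and act on target genes. The related BMP branch uses Smad1 and Smad5. TGF-beta is secreted in a latent form that is bound to the extracellular matrix until it is released, and the pathway restrains itself through inhibitory Smads, ubiquitin ligases and nuclear corepressors. In the developing face it is known for its part in palate fusion and in the growth of neural crest-derived mesenchyme.

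Smad complexes bind DNA at a palindromic element, GTCTAGAC, and at the shorter motif GTCTG. Promoter windows that run from 250 bases before to 50 bases after the RefSeq gene start were at hand for 29 of the 38 genes. *Smad7*, *Skil*, *Pmepa1*, *Bambi*, *Fst*, *Tgfb3*, *Tgfbr3*, *Smad2* and *Smad4* had no window and were not searched. The palindrome, which reads the same on both strands, lay in the window of 1 of the 29, *Smad6*, and in 0.248% of 27025 genes. The *Smad6* stretch is shown because an inhibitory Smad is itself a member of the pathway that Smads transduce. It is on the minus strand of chr9:64022048-64022071 (GRCm38.p6, RefSeq), with the palindrome in capitals, and the palindrome spans the annotated start of the gene.

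Smad6: gccaaagtGTCTAGACtggcatat

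The shorter motif, searched as GTCTG or CAGAC, does not occur within the palindrome and was in the windows of 16 of the 29 genes (55.2%) and of 53.2% of all genes. A match is a description of the letters and not of binding.

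Expression was given as FPKM, in which the fragments of a gene are scaled for its length and for the number of mapped fragments. Of the 38 genes, 28 had a mean FPKM over 10 and 33 passed the filter of FPKM over 5 in every control or every mutant sample (32 through both groups, *Tgfb1* through the controls alone). *Inhba*, *Inhbb* and *Bambi* had means between 1 and 5 and were outside the filter, and *Ltbp2* and *Fstl3* were below 1. The groups were compared with limma on log2(FPKM + 1) over the 10061 genes that passed.

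**Figure D1:**
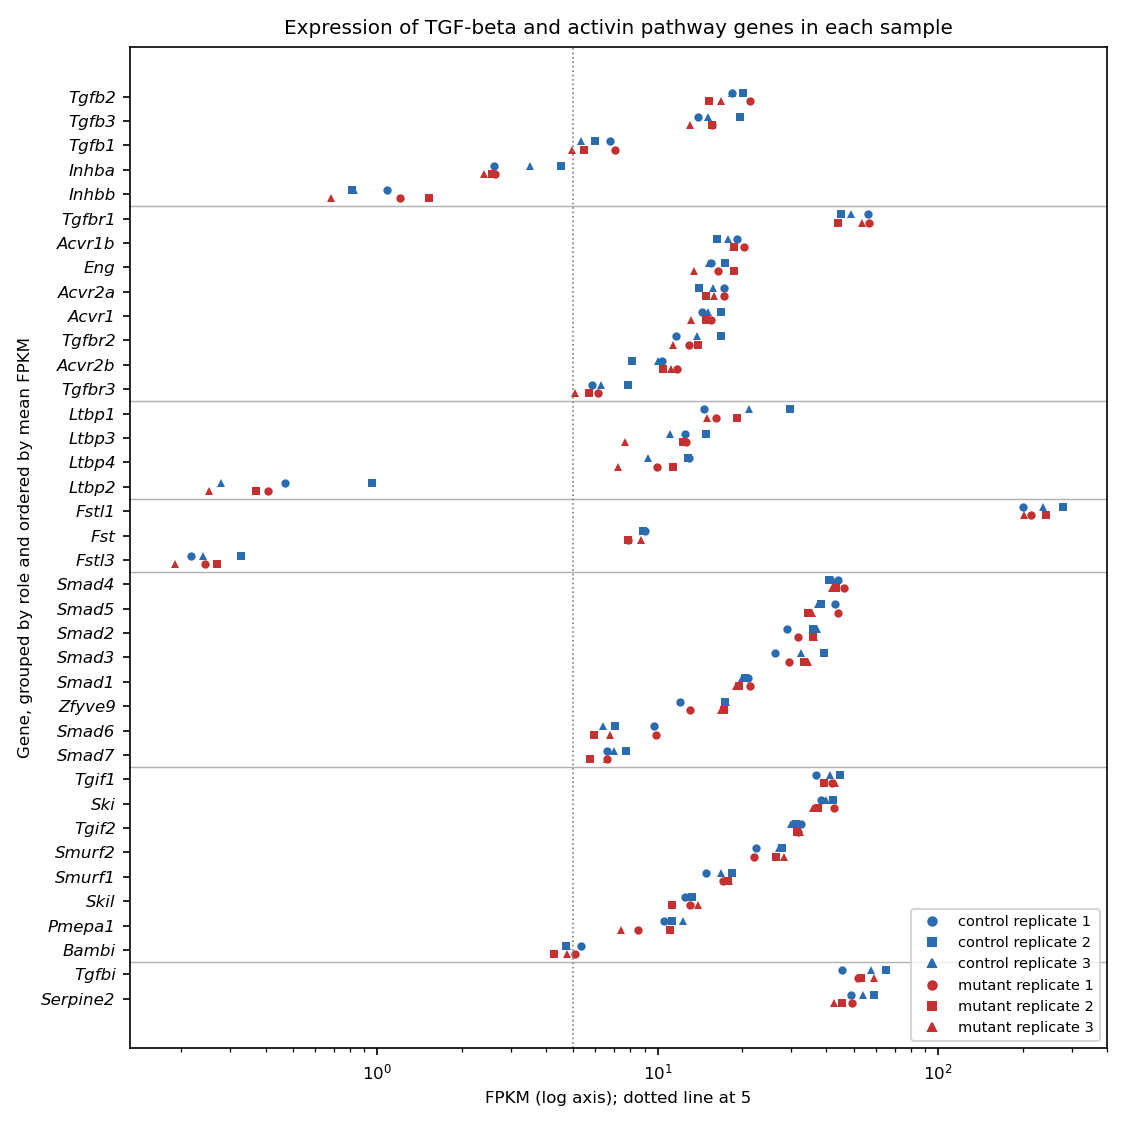
Expression of the 38 genes in each of the 6 samples, as FPKM on a log axis, with genes grouped by role and ordered by mean FPKM within a role. Blue symbols are controls, red symbols are mutants, and the shape gives the replicate number. *Fstl1* lies between 201 and 278, *Ltbp2* and *Fstl3* lie below 1, and for most genes the blue and red symbols interleave.

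*Rbfox2*, the deleted gene, had an FPKM of 58.4, 65.0 and 61.3 in control replicates 1 to 3 and of 38.1, 36.3 and 34.3 in mutant replicates 1 to 3. The groups did not overlap, and the log2 fold change was -0.75 ± 0.079 (SE, limma, adjusted p = 0.138, exact two-sided permutation p = 0.1, the smallest that 3 against 3 allows). The value covers the whole gene, so transcripts from cells without Cre and transcripts that lack only the deleted part cannot be told apart.

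The libraries differed in other ways than genotype. The first principal component of all genes tested held 54.7% of the variance and set control replicate 1 and mutant replicate 1 (-19.1 and -17.0) apart from the other 4 samples (7.55 to 11). Y-linked genes were expressed in mutant replicates 1 and 2 only (mean FPKM of 14.4 and 13.9, and at most 0.0541 in the others). All 10 markers of cranial mesenchyme passed the filter, and their summed FPKM was 450 to 504 in controls and 407 to 497 in mutants. The sum of 8 neuronal markers was 617 to 699 in controls and 752 to 830 in mutants, without overlap. *Tubb3* made up much of it, at 322 to 392 in controls and 402 to 498 in mutants. *Elavl3*, *Stmn2* and *Dcx* also did not overlap, while *Nefl*, *Isl1*, *Snap25* and *Elavl4* did. The part of the marker sums in the differences between genotypes was not tested. Skeletal muscle markers reached 383 in control replicate 2 and 149.5 to 239 elsewhere. No marker gene found was below 0.1 in every sample. In bulk tissue, fewer cells of a type and less RNA per cell cannot be told apart.

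No member of the pathway differed between mutant and control embryos after adjustment. None of the 33 genes passed an adjusted p of 0.05 in limma (0 of all 10061 genes, 0%), and every adjusted p rounded to 1. At an unadjusted p under 0.05, 1 of the 33 was lower in mutants (*Serpine2*) and 0 were higher, where 0.954% of all genes tested were lower and 0.706% were higher. With the replicate number as a block in the fit, the count was 3 lower (*Serpine2*, *Pmepa1* and *Ltbp4*) and 1 higher (*Acvr2b*), where 3.7% of all genes were lower and 2.31% higher, and the smallest adjusted p among the members was 0.768. Without the block, limma without its intensity trend also called *Serpine2* alone among the members at the unadjusted threshold, and no gene after adjustment. Of all genes tested, 0.954% were then lower and 0.736% higher.

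The differences were small against their intervals. In the fit without covariates the largest absolute log2 fold change was 0.32, the median of the absolute values was 0.060 (0.054 over all genes tested), and half-widths of the 95% intervals had a median of 0.28. The interval included 0 for 32 of the 33 genes. The median log2 fold change was -0.040 over the members and 0.0057 over all genes, and 21 of the 33 (63.6%) had a lower mean in mutants, against 47.2% of all genes. All 3 mutant values lay below the 3 control values for 1 member (*Fst*) and above them for 1 (*Acvr2b*). Over all genes tested these shares were 2.37% and 2.63%.

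**Figure D2:**
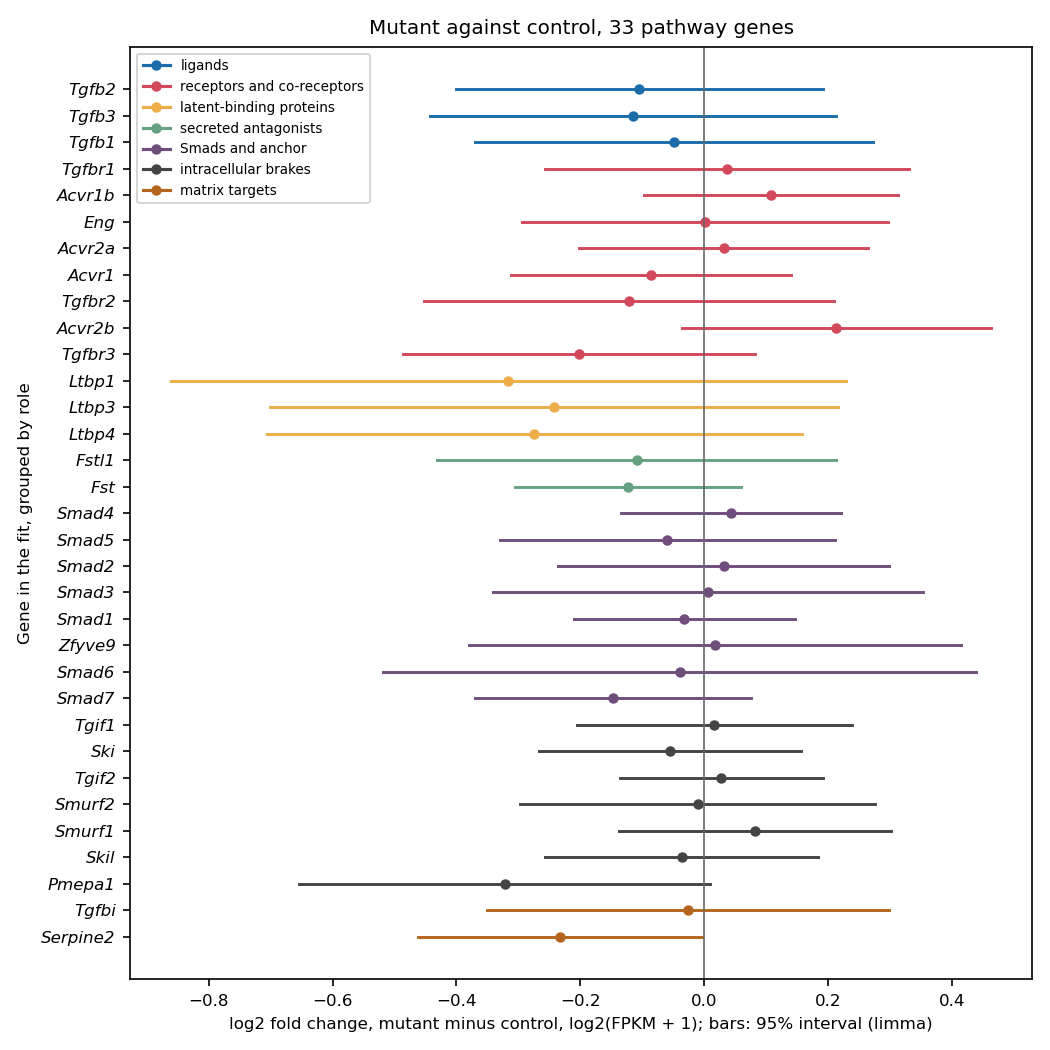
Log2 fold changes of the 33 genes in the fit, mutant minus control on log2(FPKM + 1), as points with 95% limma intervals as bars, coloured by role. The interval of *Serpine2* ends just below 0, that of every other gene includes 0, and the latent-binding proteins have the widest bars.

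Among the ligands, *Tgfb2* had the highest mean, with an FPKM of 18.5, 20.1 and 18.5 in controls and of 21.4, 15.2 and 16.8 in mutants. The mutant samples lay on both sides of the controls, and the log2 fold change was -0.10 ± 0.13 (SE), from -0.24 without mutant replicate 1 to -0.0053 without mutant replicate 2. *Tgfb3*, whose product is needed for fusion of the palatal shelves, had 13.9, 19.6 and 15.1 in controls and 15.6, 15.6 and 13.1 in mutants (log2 fold change -0.12 ± 0.14). Control replicate 2 stood above the other 5 samples, and without it the log2 fold change was 0.023. *Tgfb1* was the lowest of the 3 TGF-beta ligands, at 4.95 to 7.05, and the first replicate was the highest of each genotype (-0.048 ± 0.14).

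*Inhba* and *Inhbb* encode the subunits of activin A and activin B and were both below the filter. *Inhba* had an FPKM of 2.61, 4.53 and 3.51 in controls and of 2.62, 2.56 and 2.41 in mutants. The 3 mutant samples were close together, while control replicates 2 and 3 stood above them and control replicate 1 was level with them. Among genes with a mean FPKM over 1, its log2 fold change was -0.34 ± 0.16 (unadjusted p = 0.0664, limma, adjusted p = 1). *Inhbb* ranged from 0.682 to 1.54 and its lowest and highest samples were both mutants.

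*Tgfbr1*, the type I receptor for TGF-beta, was the most expressed of the 8 receptors and co-receptors, with an FPKM of 56.2, 45.1 and 49.0 in controls and of 56.9, 44.1 and 53.4 in mutants. Its values followed the replicate number more than the genotype, and the log2 fold change was 0.036 ± 0.12 with an interval of -0.26 to 0.33. *Tgfbr2*, the type II receptor, ranged from 11.3 to 16.8, with control replicate 2 the highest and mutant replicate 3 the lowest (-0.12 ± 0.14). *Tgfbr3*, the co-receptor betaglycan, had the same highest and lowest samples, at 7.83 and 5.07 (-0.20 ± 0.12).

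*Acvr2b*, a type II receptor for activin and related ligands, was the only member whose mutant samples were all above the controls. Its FPKM was 10.3, 8.13 and 10.1 in controls (mean 9.51 ± 1.20 SD, n = 3) and 11.7, 10.5 and 11.2 in mutants (11.1 ± 0.639). The gap between the groups was narrow, from control replicate 1 to mutant replicate 2, and the mutant was higher within each of the 3 replicate numbers. The log2 fold change was 0.21 ± 0.11 (interval -0.036 to 0.46, limma adjusted p = 1, exact two-sided permutation p = 0.1). It was 0.11 without control replicate 2. With the replicate block the adjusted p was 0.809, and after scaling by median ratios the groups overlapped. The related type II receptor *Acvr2a* and the activin type I receptor *Acvr1b* also had the higher value in the mutant within each number, with log2 fold changes of 0.031 ± 0.099 and 0.11 ± 0.087. *Acvr1*, a type I receptor of the BMP branch, and *Eng*, a co-receptor of endothelial cells, were at -0.086 and 0.0014. The summed endothelial markers were 108 to 129 in controls and 113 to 125 in mutants.

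Latent-binding proteins tether latent TGF-beta to matrix fibrils. All 3 of their genes in the fit had a lower mean in mutants, with log2 fold changes of -0.32 to -0.24 and a median of -0.27, lower than that of the other roles (the next was -0.13). Without control replicate 2, the highest sample for 2 of the 3, the median was -0.14. *Ltbp1* had an FPKM of 14.7, 29.6 and 21.2 in controls (mean 21.8 ± 7.48 SD) and of 16.2, 19.1 and 15.0 in mutants (16.8 ± 2.14). Control replicates 2 and 3 stood above all mutants, while control replicate 1 was below all of them. The log2 fold change was -0.32 ± 0.23, and leaving out control replicate 2 gave -0.078, where leaving out control replicate 1 gave -0.56.

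*Ltbp4* had 13.0, 12.8 and 9.27 in controls and 9.98, 11.4 and 7.25 in mutants. The groups overlapped, but the mutant was lower within each replicate number, by -0.35, -0.16 and -0.32 on the log2 scale. The log2 fold change of -0.27 had an SE of 0.18 without the replicate block and of 0.072 with it (adjusted p = 1 and 0.768), and leaving out mutant replicate 3 gave -0.11, where leaving out control replicate 3 gave -0.42. *Ltbp3* ranged from 7.65 in mutant replicate 3 to 14.9 in control replicate 2 (-0.24 ± 0.19, and -0.028 without mutant replicate 3). With the Y-linked genes as a covariate the log2 fold changes of *Ltbp3* and *Ltbp4* were -0.68 and -0.61. Only mutant replicates 1 and 2 expressed Y-linked genes, so these values rest almost wholly on mutant replicate 3 against the controls. Mutant replicate 3 was the lowest sample for both genes. *Ltbp2* was at 0.251 to 0.960, again with control replicate 2 the highest.

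Of the secreted antagonists, follistatin, encoded by *Fst*, binds and neutralises activins and was the only member whose mutant samples were all below the controls. Its FPKM was 9.03, 8.90 and 8.85 in controls (mean 8.92 ± 0.0929 SD, n = 3) and 7.82, 7.85 and 8.69 in mutants (8.12 ± 0.497). The controls lay close together and mutant replicate 3 was just under them. The log2 fold change was -0.12 ± 0.077 (interval -0.31 to 0.059, limma adjusted p = 1, exact two-sided permutation p = 0.1), and the groups overlapped after quantile normalization. *Fstl1*, a secreted follistatin-like protein of mesenchyme, was the most abundant member, at 201, 278 and 237 in controls and 215, 243 and 203 in mutants. Its groups overlapped fully (-0.11 ± 0.14), and control replicate 2 was again the highest. *Fstl3* stayed between 0.190 and 0.327.

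The Smads and their anchor had log2 fold changes from -0.15 to 0.043, with a median absolute value of 0.036, and 4 of these 8 genes had a lower mean in mutants. *Smad4*, the partner shared by both branches, was the most expressed, with an FPKM of 44.1, 40.7 and 42.4 in controls and of 46.0, 43.3 and 41.8 in mutants (0.043 ± 0.075, interval -0.13 to 0.22). The 2 effectors of TGF-beta and activin, *Smad2* and *Smad3*, were at 0.031 ± 0.11 and 0.0063 ± 0.15. The BMP effectors *Smad1* and *Smad5* were at -0.032 and -0.060.

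*Smad7*, an inhibitory Smad that blocks type I receptors, had the largest difference of the role. Its FPKM was 6.61, 7.74 and 6.99 in controls and 6.61, 5.73 and 6.63 in mutants, and the first replicates of both genotypes were level (-0.15 ± 0.095). *Smad6*, the inhibitory Smad whose promoter is shown above, had 9.74, 7.04 and 6.36 in controls and 9.86, 5.95 and 6.76 in mutants. Both first replicates stood above the other 4 samples, whatever the genotype. *Zfyve9*, which encodes the anchor SARA that presents Smad2 and Smad3 to the receptor, showed the opposite order: 12.0 and 13.1 in the first replicates and 16.8 to 17.5 in the others.

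Of the intracellular brakes, *Pmepa1*, a TGF-beta target that sequesters receptor Smads, had an FPKM of 10.6, 11.2 and 12.4 in controls (mean 11.4 ± 0.906 SD) and of 8.50, 11.1 and 7.43 in mutants (9.0 ± 1.87). Mutant replicates 1 and 3 were below every control and mutant replicate 2 was level with the controls. The log2 fold change of -0.32 ± 0.14 was the largest in absolute size among the members, with an interval of -0.65 to 0.0094 (limma adjusted p = 1, 0.817 with the replicate block). It was -0.21 without mutant replicate 3 and -0.47 without mutant replicate 2. *Tgif1*, a nuclear corepressor, was the most expressed brake, at 36.6, 44.9 and 41.3 in controls and 41.7, 39.3 and 42.8 in mutants (0.016 ± 0.094). The other corepressors *Ski*, *Skil* and *Tgif2* and the ubiquitin ligases *Smurf1* and *Smurf2* had log2 fold changes between -0.055 and 0.082. *Bambi*, a pseudoreceptor without kinase activity, was just below the filter at 4.26 to 5.33, and its groups overlapped.

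Of the 2 matrix targets, *Serpine2*, a secreted protease inhibitor also called protease nexin, was the only member with an unadjusted p under 0.05 in the fit without block or covariate on all 6 samples. Its FPKM was 48.9, 59.1 and 54.0 in controls (mean 54.0 ± 5.11 SD) and 49.1, 45.5 and 42.7 in mutants (45.8 ± 3.22). The first replicates were level, while mutant replicates 2 and 3 were below every control. The log2 fold change was -0.23 ± 0.097 (interval -0.46 to -0.0041, unadjusted p = 0.047, limma adjusted p = 1). It ranged from -0.30 without control replicate 1 to -0.17 without control replicate 2. *Serpine2* did not pass the unadjusted threshold without control replicate 2, control replicate 3, mutant replicate 2 or mutant replicate 3. With the Y-linked covariate, where the contrast rests almost wholly on mutant replicate 3, the log2 fold change was -0.33. *Tgfbi*, a matrix protein named for its induction by TGF-beta, had 45.4, 65.3 and 57.8 in controls and 51.7, 53.1 and 59.1 in mutants (-0.027 ± 0.14).

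**Figure D3:**
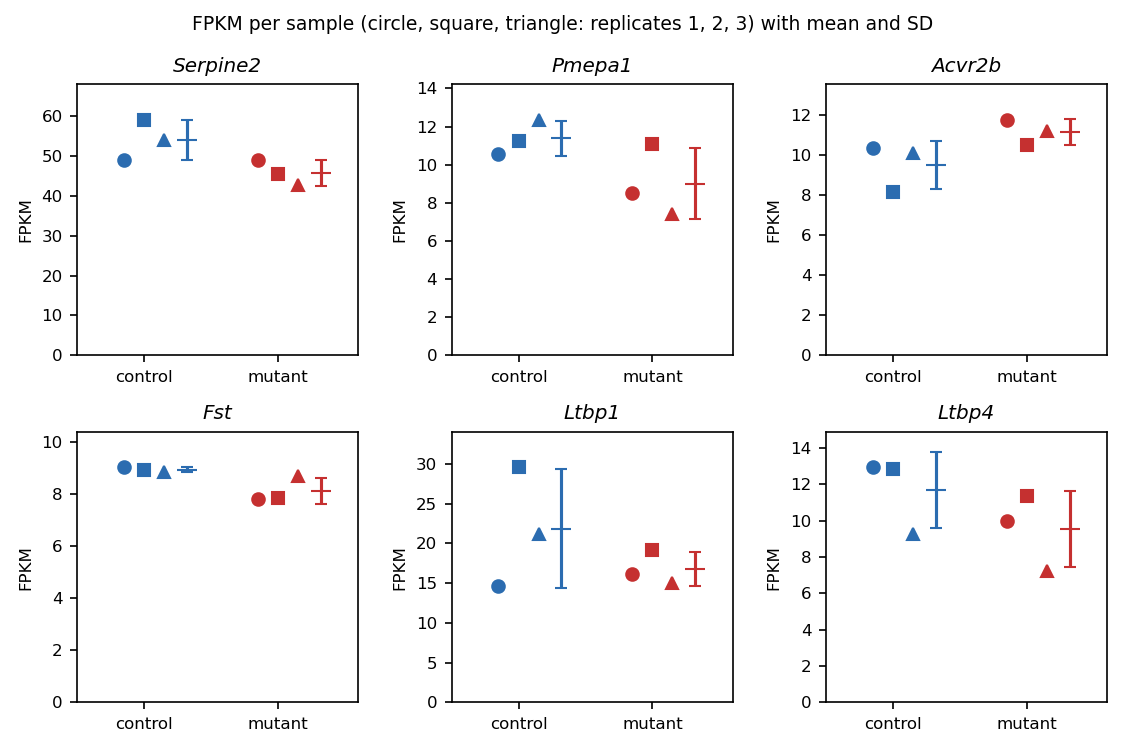
FPKM of *Serpine2*, *Pmepa1*, *Acvr2b*, *Fst*, *Ltbp1* and *Ltbp4* in each sample (circle, square and triangle for replicates 1, 2 and 3), with the mean and SD of each group beside the points (n = 3). The groups are apart for *Acvr2b* and *Fst*, by a small margin, and overlap for the other 4 genes. Control replicate 2 carries the high control mean of *Ltbp1*.

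In the annotation, *Serpine2* lies at chr1:79794197-79861180, *Pmepa1* at chr2:173224458-173276533 and *Ltbp4* at chr7:27305136-27337692, all on the minus strand, and *Ltbp1* at chr17:75005568-75392512 on the plus strand (GRCm38). *Acvr2b* (chr9:119402118-119434995, plus strand) and *Fst* (chr13:114452290-114458951, minus strand) each overlap a gene model on the other strand, as do 15 of the 38 members in all. Whether reads were assigned by strand is not given in the sources used here, so reads of such a pair may be mixed.

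The direction of the members turned with the replicate number. Within replicate number 1, 5 of the 33 genes were lower in the mutant (15.2%, where 54.6% of all genes tested were lower). Within number 2 it was 26 (78.8%, all genes 48.4%), and within number 3 it was 21 (63.6%, all genes 44.3%). The median differences were 0.060, -0.16 and -0.061 on the log2 scale, and over all genes they were -0.014, 0.0057 and 0.015. Of the 33 genes, 3 were lower in the mutant within every number (*Ltbp4*, *Fst* and *Pmepa1*, 9.09%, where all genes had 13.1%), and 3 were higher (*Acvr1b*, *Acvr2a* and *Acvr2b*, 9.09%, where all genes had 13.6%). These shares of members are below those of all genes.

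**Figure D4:**
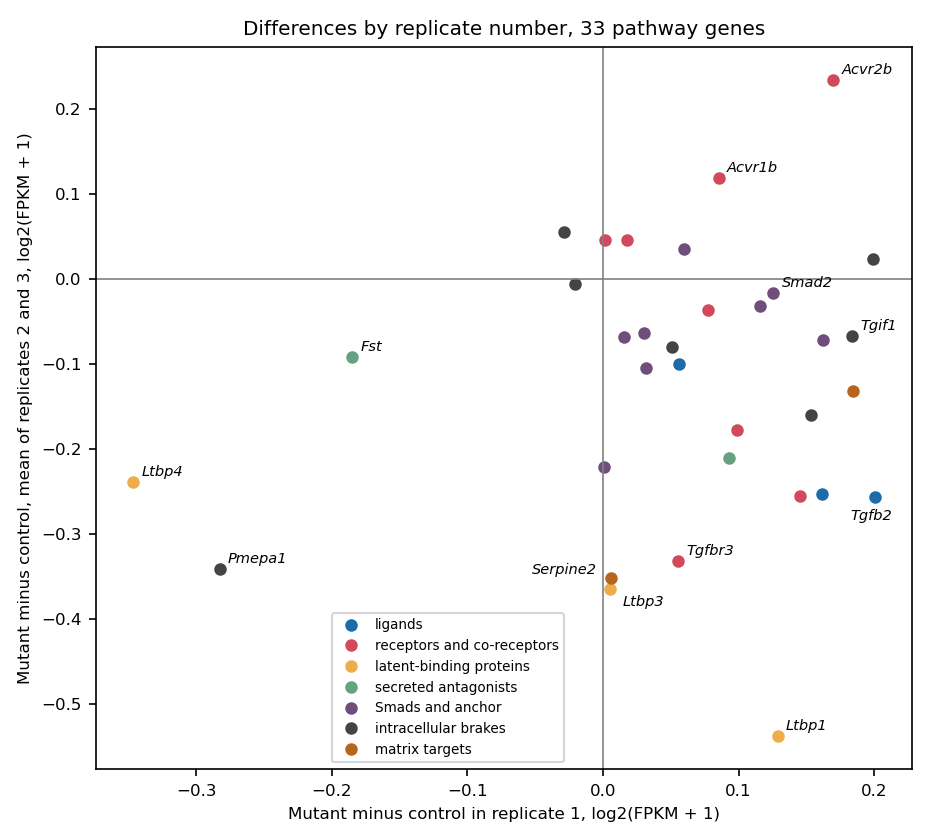
Mutant minus control within replicate 1 (x axis) against the mean of the same difference within replicates 2 and 3 (y axis), on log2(FPKM + 1), for the 33 genes, coloured by role. Most points lie at the lower right, higher in the mutant in replicate 1 and lower in replicates 2 and 3, and *Pmepa1*, *Ltbp4* and *Fst* lie in the lower left.

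The extremes fell to a few samples. Control replicate 2 was the highest sample for 13 of the 33 genes (39.4%, all genes 21.1%) and mutant replicate 1 for 11 (33.3%, all genes 12.2%). Mutant replicate 3 was the lowest for 12 (36.4%, all genes 12%). With both first replicates left out, 12 members were below and 3 above without overlap, but so were 19.9% and 25% of all genes, and 5 members had an unadjusted p under 0.05 (*Ltbp1*, *Serpine2*, *Ski*, *Tgfbr3* and *Tgfb2*, all lower), where 5.56% of all genes were lower. The smallest adjusted p of a member was then 0.357. Control replicate 2 was also the sample with the highest sums of mesenchyme, muscle, epithelium, cartilage and endothelial markers. Its sums of neuronal, forebrain progenitor and erythroid markers (617, 105 and 4141) were the lowest of the 6 samples. The part of these sums in the values above was not tested.

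For each gene, the share of variance over the 6 samples along genotype was taken. So was the share along the split of the first replicates from the others. That split is the one shown by the first principal component of these same values, so a large share along it over all genes follows. The median share along genotype was 11.2% for the members and 6.49% for all genes tested. Along the first replicates the medians were 28.2% and 51.8%. This second share was the larger for 21 of the 33 members (63.6%) and for 76.3% of all genes. The Smads and their anchor had a median of 78.7% along the first replicates, with *Zfyve9* at 96.8%, *Smad6* at 93.5% and *Smad2* at 89.8%. The genes with the largest share along genotype were *Fst* (64.8%), *Serpine2* (59.3%), *Acvr2b* (49.3%) and *Pmepa1* (49.1%).

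**Figure D5:**
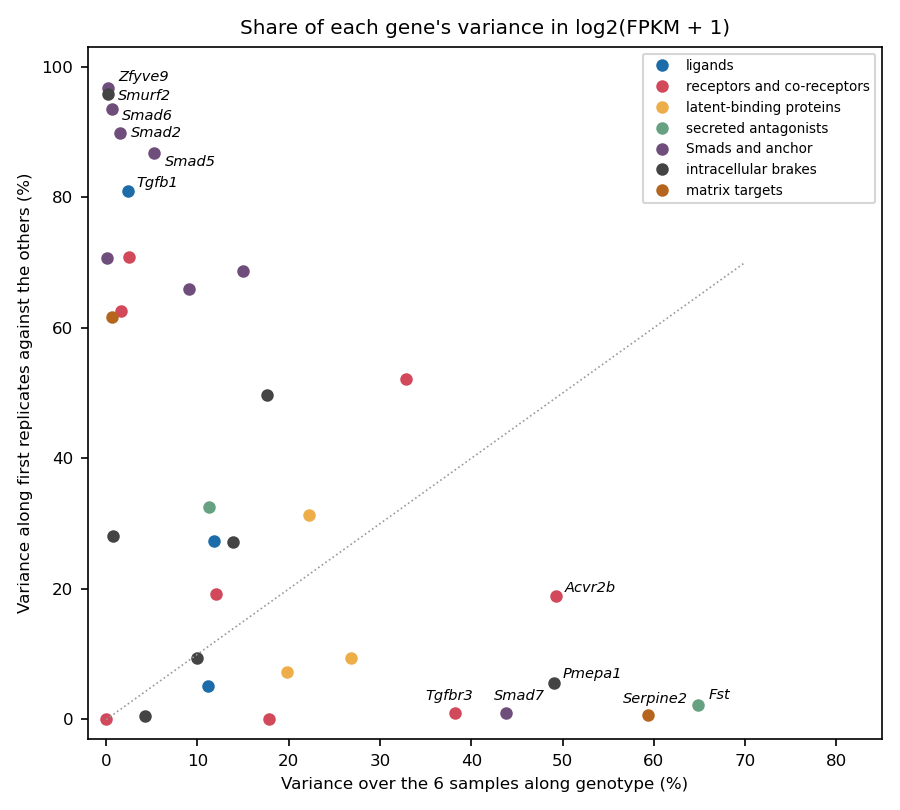
Share of each gene's variance over the 6 samples along genotype (x axis, percent) and along the contrast of first replicates with the others (y axis, percent) for the 33 genes, coloured by role, with a dotted line where both are equal. *Zfyve9*, *Smurf2*, *Smad2*, *Smad5* and *Smad6* gather at the upper left, and *Smad7*, *Fst*, *Serpine2*, *Acvr2b* and *Pmepa1* at the lower right.

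Another 71 genes of the pathway that are not among the 38 were listed by role. Of these, 70 were found and 50 passed the filter. In limma 0 of the 50 passed the adjusted threshold and 0 had an unadjusted p under 0.05, while with the replicate block 2 did, both lower: *Dcn* (-0.28) and *Aspn* (-0.50), matrix proteoglycans that bind TGF-beta, named here after their values were seen (adjusted p = 0.817 and 0.812 with the block). Over all genes tested 3.7% were lower with the block. The groups did not overlap for *Stub1*, a ubiquitin ligase that acts on Smads, with 75.4, 73.0 and 75.0 in controls and 67.6, 72.7 and 66.9 in mutants. Nor did they for *Cyr61*, a matricellular target, with 14.2, 13.8 and 14.4 in controls and 13.6, 13.7 and 12.0 in mutants. Both were lower in all mutants by small margins, as were 2.37% of all genes tested, with log2 fold changes of -0.11 ± 0.072 and -0.10 ± 0.080 (limma adjusted p = 1). Among genes below the filter, *Nodal* was lower in all mutants and *Lefty1* and *Foxh1* were higher in all mutants. Their FPKM was 0.0251 to 0.0798, 0.156 to 1.23 and 0.0394 to 0.104, near the floor for *Nodal* and *Foxh1*. With no filter, 3.33% of all genes were lower in all mutants and 3% were higher.

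All 13 genes for the activation and storage of latent TGF-beta that passed the filter had a lower mean in mutants (47.2% of all genes tested). Their median log2 fold change was -0.13 (0.0057 over all genes). None had an unadjusted p under 0.05 in the fit of all 6 samples without block or covariate. With replicates 2 and 3 only, 6 of the 13 did (*Mmp14*, *Itgb5*, *Fbn2*, *Itgav*, *Fbn1* and *Emilin1*), and without control replicate 1, 4 did (*Itgb5*, *Fbn2*, *Fbn1* and *Emilin1*), where 5.56% and 3.38% of all genes were lower. The group holds the convertase *Furin*, the proteases *Bmp1*, *Mmp2* and *Mmp14*, integrins, and the fibrillins to which latent-binding proteins attach. *Fbn1*, fibrillin 1, had an FPKM of 7.79, 18.9 and 12.3 in controls and of 8.92, 9.64 and 9.63 in mutants. *Fbn2* had 16.8, 37.6 and 25.9 in controls and 23, 22.2 and 22.8 in mutants. For both, the mutant samples were nearly equal and lay inside the wide range of the controls. As for *Ltbp1*, control replicate 1 was below every mutant and control replicates 2 and 3 were above every mutant, and both genes are named here after their values were seen. Control replicate 2 was the highest sample for 13 of the 13 genes (all genes 21.1%). Without it 10 of the 13 were lower, with a median of -0.024 (all genes 0.011). Within replicate number 1 only 3 of the 13 were lower in the mutant (all genes 54.6%).

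In the kinase branch, *Map3k7*, which encodes Tak1, had an FPKM of 33.1, 34.6 and 35.4 in controls and of 32.4, 32.8 and 35.1 in mutants. The groups overlapped, with a log2 fold change of -0.039 ± 0.073 (limma adjusted p = 1) for the gene as a whole, which does not resolve its isoforms.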

How the data were processed

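RNA-Seq was performed on craniofacial tissue of 3 control and 3 *Rbfox2* mutant embryos, described as independent biological replicates, and samples were grouped by their labelled genotype. Libraries were stranded and poly(A)-selected, reads were paired and 151 bases long, and the aligner was STAR with GRCm38. The submitters' processing notes also name Cuffdiff and FastQC 0.11.4. Values were deposited by the authors as FPKM for each gene in each sample. The step that made the gene table, its annotation release and its handling of strand are not given in the sources used here. Per-gene read counts are lost in FPKM, so no interval for counting error is given, and sums of FPKM per sample ran from 528123 to 590174. Tables of single samples and the joint table held the same values (0 differences).

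A gene was kept if its FPKM exceeded 5 in every control or in every mutant sample (10061 genes). The study's methods state this filter for transcripts in Cuffdiff, and here it was applied to the gene table. Values were taken to log2(FPKM + 1), a scale that understates changes of low genes, and the genotypes were contrasted in limma (3.58.1, R 4.3.3) over all 6 samples, with a mean-variance trend and no covariate, with Benjamini-Hochberg adjustment over all genes tested. An exact two-sided permutation test over samples was added for single genes.

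The 38 genes, the 71 other pathway genes and the marker lists were chosen with earlier results of these data known. Genes given sample by sample are those with groups that do not overlap, those with an unadjusted p under 0.05 with or without the replicate block, and in each role the most expressed gene and the one with the largest fold change. A few more members were added by role after their values were seen. Of the other pathway genes, those past the unadjusted threshold or with separate groups were named.

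Samples that share a replicate number deviated from their group means together (correlation across genes of 0.644, 0.258 and 0.513 for numbers 1, 2 and 3), so the replicate number was used as a block in an alternative fit. The pairing comes from these values, since no label ties numbers to litters, and it mainly sets the first replicates apart: replicates 2 and 3 also correlated across numbers (0.401 and 0.234), and pairs of a first replicate with another sample were at -0.685 to -0.369. Other alternatives were a pseudocount of 0.1, median ratio scaling, quantile normalization, a filter on a mean FPKM over 1 and no filter, limma without the trend, 4 Y-linked genes as a covariate, a term for the first replicates, replicates 2 and 3 only, and each sample left out in turn.

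Of the gene identifiers, 95.0% were found in GENCODE M21 (GRCm38), the source of positions. Promoters came from a RefSeq table (GRCm38.p6) and were matched by symbol. Ranges of summed marker FPKM in controls and mutants, where not given above, were 105 to 215 and 157 to 185 for forebrain progenitors, 125 to 216 and 124 to 172 for epithelium, 189 to 268 and 185 to 244 for cartilage and bone, 4141 to 8144 and 5708 to 8472 for erythroid cells, and 40.3 to 50.0 and 40.2 to 53.5 for macrophages.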

Additional observations from a re-analysis of the deposited data

How the results depend on the processing

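No member passed an adjusted p of 0.05 under any alternative (limma, adjusted p from 0.357 upwards). The median log2 fold change of the members was below 0 under each, from -0.10 to -0.018. The replicate block, the term for the first replicates and limma without its trend cannot move this median in a balanced design, so they do not test it. Within replicate number 1 alone the members' median difference was 0.060. At an unadjusted p under 0.05 in limma the count of members was 1. It was 2 with median ratio scaling, 0 with quantile normalization and 4 with the replicate block. The count was 3 with a term for the first replicates and 5 with replicates 2 and 3 only. With single samples left out it was 0 to 3. It was 0 without control replicate 2, control replicate 3 or mutant replicate 3, 3 without control replicate 1 and 2 without mutant replicate 1. With the Y-linked covariate the contrast rests almost wholly on mutant replicate 3, so no count is given (*Pmepa1* was then at -0.55). Shares of all genes at the unadjusted threshold moved too. They ran from 0.388% in each direction without control replicate 2 to 5.56% lower and 5.41% higher with replicates 2 and 3 only. They were 1.07% lower and 0.636% higher with median ratio scaling, and 3.7% and 2.31% with the replicate block. With the term for the first replicates they were 3.46% and 2.61%. Without control replicate 1 they were 3.38% and 3.07%, and without mutant replicate 1 they were 2.15% and 1.96%. The pairing by replicate number moved no adjusted call. Members with groups that do not overlap numbered 2. The count was 1 with median ratio scaling, where 2.64% of all genes were below and 2.59% above. It was 1 with quantile normalization (2.37% and 3.1%) and 15 with replicates 2 and 3 only (19.9% and 25%). With single samples left out it was 2 to 10. It was 10 without control replicate 1, where 12.6% of all genes were below and 11.8% above, and 8 without mutant replicate 1, where these shares were 9.12% and 15.2%. Of the other pathway genes 0 had an unadjusted p under 0.05 in limma. Their count was 2 with the replicate block and 2 with the term for the first replicates. With no filter it was 1 (*Lefty1*, higher in mutants), where 1.63% of all genes were lower and 1.24% higher. The count of these other genes was 7 with replicates 2 and 3 only and 0 to 4 with single samples left out (4 without control replicate 1). Over all genes, 0 passed the adjusted threshold, 3 with the term for the first replicates, 4 with replicates 2 and 3 only and 0 to 1 with single samples left out. *Rbfox2* passed the adjusted threshold with that term (log2 fold change -0.75) and with replicates 2 and 3 only (-0.82). Fold changes near 0 turned sign, and the list that follows is not complete. With the Y-linked covariate *Smad4* turned to -0.020 and *Tgfbi* to 0.085. With replicates 2 and 3 only, *Eng* (-0.037), *Smad2* (-0.016), *Smad3* (-0.072), *Zfyve9* (-0.032) and *Tgif1* (-0.068) turned to lower in mutants, and 26 of the 33 members were lower. With single samples left out the sign turned for *Tgfb3* (-0.21 to 0.023), *Tgfbr1* (-0.039 to 0.14), *Fstl1* (-0.23 to 0.0053), *Tgif1* (-0.060 to 0.084) and *Tgfbi* (-0.17 to 0.088). The cause of these shifts was not tested. With 3 samples a group, intervals with a median half-width of 0.28 on the log2 scale set the size of difference that could be seen, and the read depth behind each FPKM is unknown.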
